A study of Mus musculus with 12 samples.

Results

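Mature miRs that are read as marks of blood vessels, 5 in all, were examined in miR-seq of mouse fetal liver: *mmu-miR-126a-3p* and *mmu-miR-126a-5p*, known from endothelium, and *mmu-miR-143-3p*, *mmu-miR-145a-5p* and *mmu-miR-145a-3p*, known from smooth muscle and perivascular cells. They were taken by name, with earlier results of these data known, and are 5 of the 1927 miRs listed in the count table, of which 682 had a count and 388 passed the filter on low counts. All 5 passed that filter, and no entry joins any of them with another miR. *miR-143-5p*, the partner arm of *miR-143-3p*, was read as well so that arms could be compared.

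Each of the 12 libraries came from the E18.5 liver of a different female fetus, from 5 wild-type (WT) littermates and 7 Mir483Pat-KO fetuses. Mir483Pat-KO fetuses inherited from the father an allele from which Cre had removed *Mir483*, a miR gene in an intron of the imprinted *Igf2*. The deletion is constitutive, so every fetal cell type carries it, and it derives from JM8.F6 embryonic stem cells of C57BL/6N origin kept on C57BL/6J. Both genotypes share stage, sex and tissue, and the labels name no treatment. The deleted miR was read 733 to 1281 times per WT library and 0 to 19 times per Mir483Pat-KO library as *miR-483-3p*, and 245 to 371 against 0 to 4 times as *miR-483-5p*, so all 12 libraries matched their labels.

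Endothelial cells make *miR-126* from an intron of *Egfl7*, a gene for a protein that they secrete, and *miR-126* is known for sustaining VEGF signalling and vessel integrity. It is also known in blood stem cells and megakaryocytes, and fetal liver is a blood-forming organ. *miR-143* and *miR-145* are cut from a single primary transcript and are known for the contractile state of vascular smooth muscle. From a hairpin 2 arms can be cut, named 5p and 3p, of which the more abundant is usually the one that is loaded onto Argonaute.

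The *miR-126* sequences are shown because mouse has an antisense gene, *Mir126b*, on the same bases. Of the 5 miRs, 1 matched an entry of the RefSeq table of mature mouse miRs (GRCm38.p6), *mmu-miR-126a-3p*, printed below with both arms of *Mir126b*. Capitals mark the seed, bases 2 to 8, through which a miR pairs with its targets. None of these 3 seeds is shared with another of the 1738 entries in the table.
mmu-miR-126a-3p: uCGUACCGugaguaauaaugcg
mmu-miR-126b-3p: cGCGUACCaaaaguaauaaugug
mmu-miR-126b-5p: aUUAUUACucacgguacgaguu
*miR-126a-3p* lies at chr2:26591402-26591423 on the plus strand, and *miR-126b-5p* at chr2:26591399-26591420 on the minus strand overlaps it by 19 bases. In GENCODE's annotation of GRCm38 the 73-base *Mir126a* hairpin (chr2:26591357-26591429, plus strand) is inside *Egfl7* (chr2:26580014-26593120), where 1 of the gene's 19 annotated transcripts has an exon over the hairpin and the others that span it have an intron there. Another protein-coding gene, *Gm20532* (chr2:26586639-26635634, plus strand), also spans the hairpin, and its 1 annotated transcript has no exon there. The antisense gene was hardly read. *miR-126b-5p* had 0 reads in all 12 libraries, which allows a level of up to 0.295 CPM over them if every read was listed. The lowest count above 0 is 2, so single reads may be missing and that bound may be too low. *miR-126b-3p* had 5 reads, all in WT 2, beside 6857 reads of *miR-126a-3p* and 3590 of *miR-126a-5p*.

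Total counts were 711810 to 1211160 per WT library and 658665 to 921068 per Mir483Pat-KO library. Levels are given in CPM, the count per 1000000 counts of a library, its total scaled by TMM, and 3 counts, the lowest level read as a signal here, were 2.58 to 4.03 CPM for WT totals and 3.37 to 4.68 CPM for Mir483Pat-KO totals. Such floors cover counting error only. The animal numbers in the labels fall into a lower range, with WT 1 to 4 and Mir483Pat-KO 1 to 4, and an upper range, with WT 5 and Mir483Pat-KO 5 to 7. The library index numbers are 37 to 41 for WT and 42 to 48 for Mir483Pat-KO, so index order and genotype cannot be told apart.

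The 5 miRs covered very different levels. *miR-143-3p* ranked sixth of the 388 miRs tested by mean level and took 2.66% to 3.29% of the counts of each library. *miR-126a-3p* ranked 85, *miR-126a-5p* 121, *miR-145a-5p* 150 and *miR-145a-3p* 218. In counts, the libraries held 18597 to 32957 reads of *miR-143-3p*, 393 to 832 of *miR-126a-3p*, 149 to 498 of *miR-126a-5p*, 110 to 296 of *miR-145a-5p* and 37 to 86 of *miR-145a-3p*. This order was nearly fixed from fetus to fetus. *miR-143-3p* exceeded *miR-126a-3p* in 12 of 12 libraries, by 36.5-fold to 59.0-fold, and *miR-126a-3p* exceeded *miR-126a-5p* in 12 of 12, by 1.58-fold to 2.70-fold. *miR-126a-5p* exceeded *miR-145a-5p* in 11 of 12 libraries, with the pair level at 0.994-fold in the remaining library. The median over all 12 was 1.80-fold. *miR-145a-5p* exceeded *miR-145a-3p* in 12 of 12, by 1.97-fold to 4.48-fold. These are ratios of reads counted, and reads per molecule can differ between miRs.

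*miR-126a-3p*, the guide strand of *miR-126a*, stood at 715, 730.3, 772, 657 and 646 CPM in WT 1 to 5. In the 7 Mir483Pat-KO libraries the lowest level was 529, the median 671 and the highest 793 CPM. The genotypes overlapped: 2 Mir483Pat-KO fetuses lay below every WT fetus, 1 lay above and 4 lay among them. The mean was 704 ± 52.3 CPM in WT (SD, n = 5) and 652 ± 93.2 CPM in Mir483Pat-KO (SD, n = 7). *miR-126a-5p*, its partner arm, stood at 427.7, 389, 488.9, 335 and 306 CPM in WT 1 to 5. Its lowest, median and highest levels in Mir483Pat-KO were 196, 316 and 427 CPM. The same 2 fetuses, Mir483Pat-KO 5 and 7, were lowest for both arms, at 529 and 534 CPM of *miR-126a-3p* and 196 and 220.1 CPM of *miR-126a-5p*, and the 5 others lay among the WT values for *miR-126a-5p*. Means of *miR-126a-5p* were 389 ± 73.0 CPM in WT (SD, n = 5) and 324 ± 90.6 CPM in Mir483Pat-KO (SD, n = 7).

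*miR-143-3p*, the most abundant of the 5, stood at 28305, 31481, 30584, 30669 and 28395 CPM in WT 1 to 5. In Mir483Pat-KO it ran from 27677 over a median of 29345 to 32675 CPM. All but 2 of the Mir483Pat-KO values lay inside the WT range, with 1 below and 1 above. Means were 29887 ± 1446 CPM in WT (SD, n = 5) and 29771 ± 1646 CPM in Mir483Pat-KO (SD, n = 7). *miR-145a-5p*, the guide strand of the neighbouring hairpin, was at 185, 214, 207, 251 and 298 CPM in WT 1 to 5 and at 155, 187 and 254 CPM as lowest, median and highest in Mir483Pat-KO. WT 5 was the highest of all 12 libraries, 3 Mir483Pat-KO fetuses lay below every WT fetus and none lay above. Means were 231 ± 44.5 CPM and 195 ± 33.5 CPM (SD, n = 5 and 7). *miR-145a-3p*, the partner arm, was at 73.9, 70.05, 105, 81.2 and 66.5 CPM in WT 1 to 5 and at 48.7, 67.9 and 85.7 CPM as lowest, median and highest in Mir483Pat-KO. WT 3 was highest and Mir483Pat-KO 5 lowest, and 3 Mir483Pat-KO fetuses were below every WT fetus. Means were 79.3 ± 15.3 CPM and 67.8 ± 10.9 CPM (SD, n = 5 and 7).

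**Figure D1:**
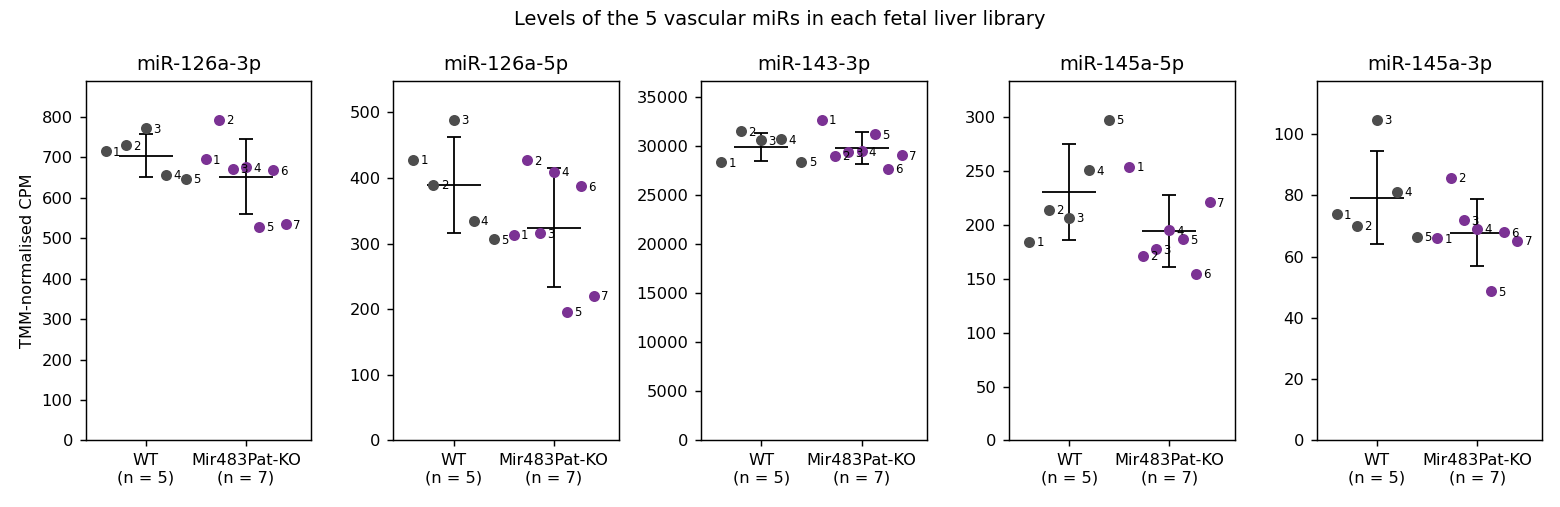
TMM-normalised CPM (linear axes from 0, a separate scale for each miR) in each library of the 5 WT and 7 Mir483Pat-KO fetuses, numbered by replicate, with the mean (bar) and SD (whiskers). The genotypes overlap for all 5 miRs, and Mir483Pat-KO 5 and 7 are lowest for both arms of *miR-126a*, at 529 and 534 CPM for the 3p arm.

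The question of the design is whether loss of *Mir483* on the paternal allele changes other miRs of fetal liver, and for these 5 no change passed the test. In edgeR's quasi-likelihood test, with p adjusted over the 388 miRs by Benjamini-Hochberg, 0 of 5 were called at an adjusted p under 0.05, where 8 of 388, or 2.06%, were called in all (4 higher and 4 lower in Mir483Pat-KO). At an unadjusted p under 0.05 the count was 0 of 5 against 17.5% of all miRs. No member had every Mir483Pat-KO fetus on one side of every WT fetus, which 2.84% of all miRs did. With only 5 members, a count of 0 lies near each of these backgrounds.

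The fold changes had their centres on the lower side in Mir483Pat-KO, with intervals that include 0. *miR-126a-3p* had a log2 fold change of -0.11 (SE 0.095, 95% interval -0.31 to 0.091, adjusted p = 0.627 by edgeR). *miR-126a-5p* was at -0.26 (SE 0.18, interval -0.64 to 0.11, adjusted p = 0.481 by edgeR). For *miR-143-3p* the estimate was -0.0056 (SE 0.051), and its interval of -0.11 to 0.10 was the narrowest of the 5. *miR-145a-5p* came nearest to the threshold, at -0.25 (SE 0.13, interval -0.53 to 0.031, unadjusted p = 0.0771 and adjusted p = 0.371 by edgeR). *miR-145a-3p* was at -0.22 (SE 0.15, interval -0.53 to 0.091, adjusted p = 0.480 by edgeR). In bulk liver, fewer cells of a type and less of a miR per cell cannot be told apart.

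**Figure D2:**
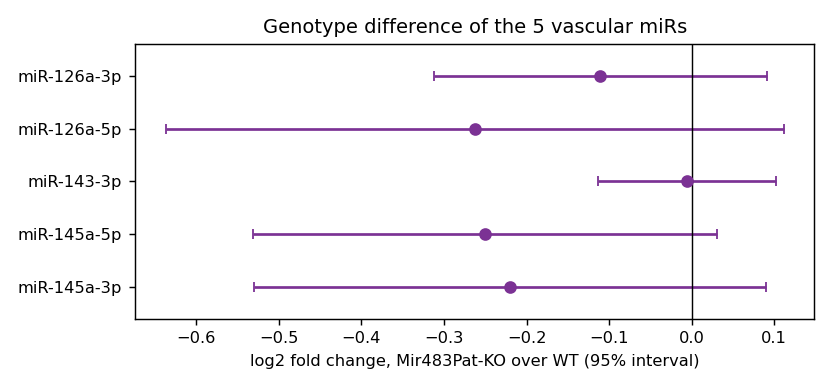
Log2 fold change of each of the 5 miRs in Mir483Pat-KO over WT (points) with its 95% interval from edgeR's quasi-likelihood fit (bars), on 5 and 7 fetuses. Every interval crosses 0, and that of *miR-143-3p* is the narrowest, from -0.11 to 0.10.

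The animal-number ranges moved with some of these levels. *miR-126a-3p* averaged 719 CPM in WT and 709 CPM in Mir483Pat-KO in the lower range, with 4 fetuses each, and 646 CPM in the WT fetus and 577 CPM in the 3 Mir483Pat-KO fetuses of the upper range. *miR-126a-5p* averaged 410.1 against 366 CPM in the lower range and 306 against 268 CPM in the upper. *miR-145a-5p* was at 214 and 199.7 CPM in the lower range and at 298 and 188 CPM in the upper. In the lower range alone the log2 fold changes were -0.036 for *miR-126a-3p*, -0.18 for *miR-126a-5p*, -0.12 for *miR-145a-5p* and -0.18 for *miR-145a-3p*, and none passed the test. With the range as a factor they were -0.059, -0.17, -0.27 and -0.16 in the same order, and again none passed. WT 5, the highest library for *miR-145a-5p*, is the only WT fetus of the upper range. Without WT 5 the log2 fold change of *miR-145a-5p* was -0.14, against -0.25 over all fetuses. With the library index number as a linear covariate, the log2 fold changes of *miR-126a-3p* and *miR-126a-5p* turned to 0.26 and 0.27. Those of *miR-145a-5p* and *miR-145a-3p* were -0.39 and -0.013, and none passed (adjusted p of 0.980 or more by edgeR). Since index order follows genotype, such a fit cannot separate them.

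Fetuses differed in these miRs to very unequal degrees. *miR-143-3p* was among the steadiest miRs of the liver, with an SD of 0.075 in log2 CPM within genotypes, at percentile 1.29 of the 388 miRs, whose median was 0.24. Its coefficient of variation was 4.84% in WT and 5.53% in Mir483Pat-KO, where counting alone gives 0.595% and 0.666%. Abundant miRs vary less in counting, so like levels were also compared. Among the 7 other miRs within 1 log2 unit of its level it stood at percentile 14.3, below their median SD of 0.10. *miR-126a-5p* was at the other end. Its SD of 0.38 was larger than that of all 78 miRs of like level, whose median was 0.16, and its coefficient of variation was 18.7% in WT and 28.0% in Mir483Pat-KO against 5.27% and 6.63% from counting. *miR-126a-3p* had an SD of 0.18, at percentile 73.0 of 63 like miRs with a median of 0.14. *miR-145a-5p*, at 0.25, was at percentile 90.4 of 83 like miRs. *miR-145a-3p*, at 0.24, was at percentile 40.9 of 88, and counting alone gives it a coefficient of variation of 11.6% in WT and 14.1% in Mir483Pat-KO beside the 19.3% and 16.1% seen.

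Arm usage was read as the share of the less abundant arm among the reads of a hairpin, which needs no scaling between libraries. *miR-126a* and *miR-145a* kept much of their reads on the second arm, and *miR-143* kept almost none. *miR-126a-5p* held 32.1% to 38.8% of *miR-126a* reads in WT (35.4% ± 2.71, SD, n = 5) and 27.0% to 37.75% in Mir483Pat-KO (32.7% ± 3.96, SD, n = 7). *miR-145a-3p* held 18.2% to 33.6% of *miR-145a* reads in WT (25.9% ± 5.68, SD, n = 5) and 20.6% to 33.3% in Mir483Pat-KO (26.1% ± 4.99, SD, n = 7). *miR-143-5p* held 0% to 0.110% of *miR-143* reads in WT and 0% to 0.0728% in Mir483Pat-KO. Over the 12 libraries summed, the shares were 34.4% for *miR-126a*, 25.6% for *miR-145a* and 0.0483% for *miR-143*. Among the 123 hairpins with both arms listed and at least 1000 counts, ranked from the smallest share, *miR-143* was at 15, *miR-145a* at 100 and *miR-126a* at 108, where the quartiles were 0.357%, 3.75% and 19.6%. The 3p arm led in *miR-126a* and *miR-143* and the 5p arm in *miR-145a*, and among the 123 hairpins 60 were led by the 3p arm and 63 by the 5p arm.

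**Figure D3:**
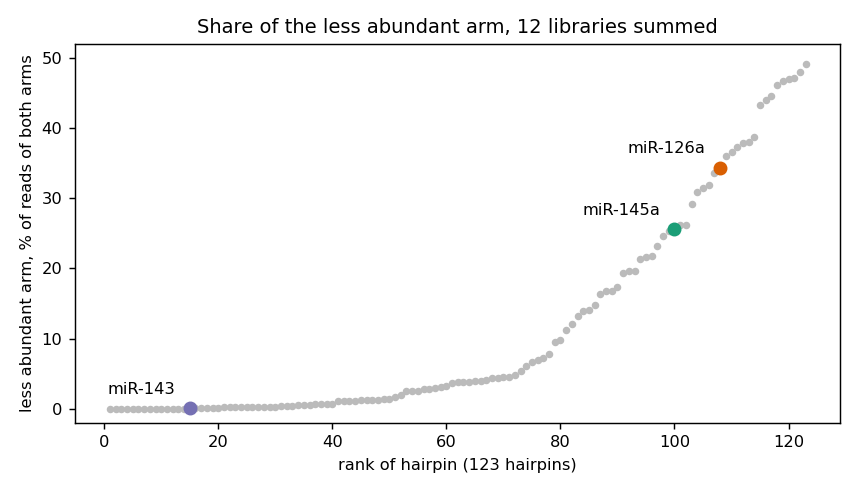
Share of the less abundant arm, in percent of the reads of both arms over the 12 libraries summed, for 123 hairpins ranked from the smallest share (grey points), with the 3 vascular hairpins in colour. *miR-126a* (34.4%) and *miR-145a* (25.6%) lie above the upper quartile of the ranking, and *miR-143* (0.0483%) lies near its foot.

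*Mir143* (chr18:61649196-61649258) and *Mir145a* (chr18:61647825-61647894) are on the minus strand of GRCm38 with 1301 bases between them, and no other annotated gene overlaps them. Though both come from a shared precursor transcript, *miR-143-3p* was read 95.3 to 153 times as often as *miR-145a-5p* in WT, with a median of 147, and 129 to 179 times in Mir483Pat-KO, with a median of 165. In log2 this ratio was 7.03 ± 0.29 in WT (SD, n = 5) and 7.27 ± 0.19 in Mir483Pat-KO (SD, n = 7). The difference of 0.24 (SE 0.14) did not pass a two-sided exact permutation test (p = 0.105, adjusted p = 0.524 over 5 ratios), and 4 of 7 Mir483Pat-KO fetuses lay above every WT fetus.

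The arm ratios of *miR-126a* and *miR-145a* did not differ between genotypes past the test. *miR-126a-3p* over *miR-126a-5p* was 0.87 ± 0.17 in log2 in WT (SD, n = 5) and 1.05 ± 0.26 in Mir483Pat-KO (SD, n = 7). The difference was 0.18 (SE 0.13, two-sided exact permutation test, p = 0.220, adjusted p = 0.549), with 4 of 7 Mir483Pat-KO fetuses above every WT fetus. *miR-145a-5p* over *miR-145a-3p* was 1.54 ± 0.44 and 1.51 ± 0.37 (SD, n = 5 and 7), a difference of -0.025 (SE 0.23, exact permutation test, p = 0.903). *miR-143-5p* had 30, 13, 11, 0 and 31 reads in WT 1 to 5 and 0 to 19 reads in Mir483Pat-KO, so the ratio of *miR-143-3p* to it rests on few reads. It was 910-fold to 2351-fold in the WT libraries and 1374-fold to 3952-fold in the Mir483Pat-KO libraries that had a read of *miR-143-5p*. In the 3 libraries with 0 reads it was at least 9564-fold (WT 4), 8152-fold (Mir483Pat-KO 6) and 7126-fold (Mir483Pat-KO 7), against a floor of 3 counts per library. Since these 3 ratios are bounds, no group mean or p is given for *miR-143*. Its test was run with 0.5 added to each count, and it is among the 5 ratios of the adjustment. *miR-126a-3p* and *miR-143-3p* are known from endothelium and from perivascular cells, and which liver cells gave their reads was not tested. The ratio of *miR-126a-3p* to *miR-143-3p* was -5.41 ± 0.10 in log2 in WT (SD, n = 5) and -5.52 ± 0.24 in Mir483Pat-KO (SD, n = 7). That difference of -0.11 (SE 0.11) did not pass the exact permutation test (p = 0.341, adjusted p = 0.5682). Of the 7 Mir483Pat-KO fetuses, 3 lay below every WT fetus and 1 lay above.

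To see which of the miRs moved together from fetus to fetus, each was centred on its genotype mean in log2 CPM, and the 10 pairs among the 5 were correlated over the 12 fetuses, with p from 100000 permutations within genotype. The arms of *miR-126a* rose and fell together. Pearson's r was 0.92 (permutation p = 0.00034, adjusted p = 0.0034 over the 10 pairs) and Spearman's rho 0.83 (permutation p = 0.00379, adjusted p = 0.0379). Without Mir483Pat-KO 5 and 7, the fetuses farthest from the median of *miR-126a-3p*, r was 0.80. Within the 7 Mir483Pat-KO fetuses alone, r was 0.91 (exact permutation p = 0.00933, adjusted p = 0.0466). There rho was 0.75 (exact permutation p = 0.0663), and r was 0.47 without the same 2 fetuses. Within the lower animal-number range, with 8 fetuses, r was 0.74 (exact permutation p = 0.0434, adjusted p = 0.217). The upper range holds 4 fetuses, too few for a value of its own.

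For the arms of *miR-145a* no relation passed the test, and the difference from *miR-126a* was not tested. *miR-145a-5p* and *miR-145a-3p* had r = -0.28 (permutation p = 0.396, adjusted p = 0.566) and rho = -0.33. WT 5, with the highest level of *miR-145a-5p* at 298 CPM, had 66.5 CPM of *miR-145a-3p*, the lowest in WT. WT 3, with the highest level of *miR-145a-3p* at 105 CPM, had 207 CPM of *miR-145a-5p*.

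The passenger arm *miR-145a-3p* moved with *miR-126a* over the 12 fetuses. Its r was 0.74 with *miR-126a-3p* (permutation p = 0.00545, adjusted p = 0.0182) and 0.75 with *miR-126a-5p* (permutation p = 0.00236, adjusted p = 0.0118). In ranks the values were 0.69 and 0.64, both with an adjusted p of 0.0800 (permutation test). Without the 2 fetuses farthest from the median, r was 0.71 and 0.67. Both calls were lost without some single fetuses. Without Mir483Pat-KO 5 both fell to 0.60 (adjusted p = 0.115, permutation test), and without Mir483Pat-KO 2 r with *miR-126a-3p* was 0.64 (adjusted p = 0.0600, permutation test). Without WT 3, r stayed at 0.75 and 0.73, with adjusted p values of 0.0828 and 0.0650 (permutation test). Within the lower range r was 0.61 and 0.58 (exact permutation p = 0.148 and 0.184). With 37 to 86 reads per library, *miR-145a-3p* is also the member with the most counting error.

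No relation between guide strands known from endothelium and those known from perivascular cells passed the test over the 12 fetuses. *miR-126a-3p* with *miR-143-3p* had r = -0.013 (permutation p = 0.9746), and *miR-126a-3p* with *miR-145a-5p* had r = -0.36 (permutation p = 0.259, adjusted p = 0.431). *miR-126a-5p* with *miR-145a-5p* had r = -0.51 (permutation p = 0.0998, adjusted p = 0.250) and rho = -0.63 (permutation p = 0.0436, adjusted p = 0.109). For *miR-143-3p* with *miR-145a-5p*, the pair from one primary transcript, r was 0.39 (permutation p = 0.228, adjusted p = 0.431) and rho 0.50 (permutation p = 0.117). It was 0.17 without WT 2 and Mir483Pat-KO 1, the farthest from the median of *miR-143-3p*, 0.080 without Mir483Pat-KO 1 alone and 0.73 without WT 5 (adjusted p = 0.0495, permutation test). Within the lower range it was 0.86 (exact permutation p = 0.0226, adjusted p = 0.217).

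**Figure D4:**
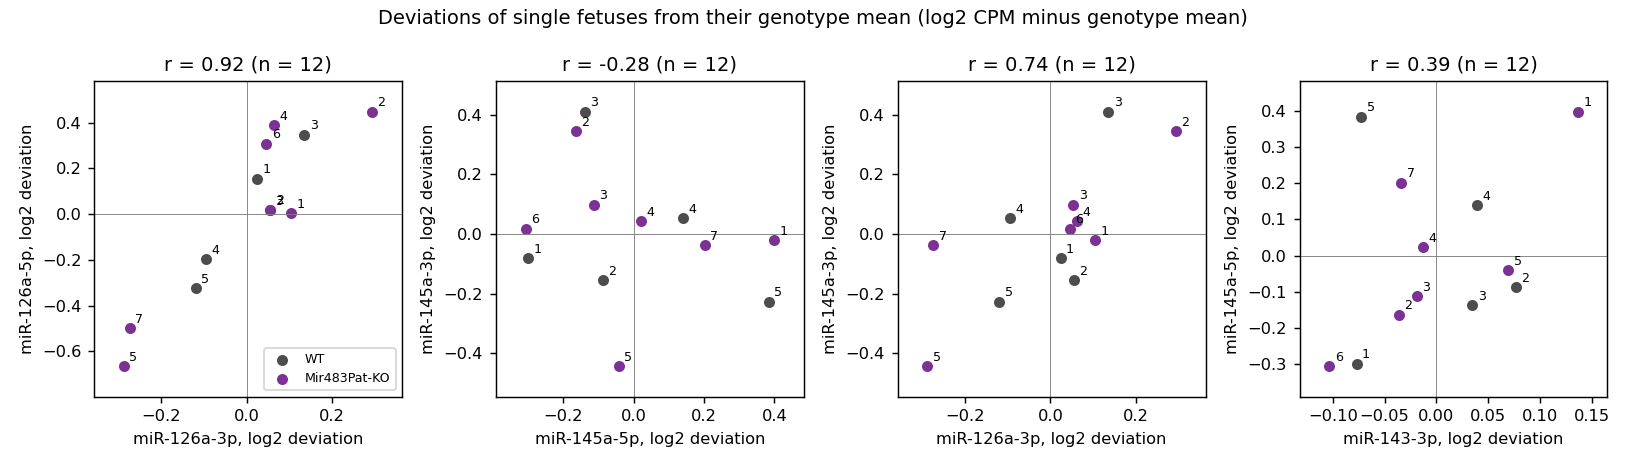
Deviation of each fetus from its genotype mean in log2 CPM for 4 pairs of the 5 miRs (grey WT, purple Mir483Pat-KO, numbered by replicate), with Pearson's r over 12 fetuses. The arms of *miR-126a* lie along a line (r = 0.92), and the arms of *miR-145a* do not (r = -0.28). *miR-145a-3p* with *miR-126a-3p* has r = 0.74, with Mir483Pat-KO 5 at the low end, and its call was lost without that fetus. *miR-143-3p* with *miR-145a-5p* has r = 0.39.

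The miRs whose pattern over the 12 fetuses was most like each guide strand were sought among 219 others whose log2 CPM averaged 6 or more, by Pearson's r of the centred values, as a description without a test. For *miR-126a-3p* these were *miR-322-5p* (0.91), *miR-130a-3p* (0.91) and *miR-450a-5p* (0.88), where the median of all 219 was 0.056. For *miR-143-3p* they were *let-7d-3p* (0.79), *let-7f-5p* (0.65) and *miR-299a-5p/299b-5p* (0.60), and for *miR-145a-5p* they were *miR-351-5p* (0.80), *miR-99b-5p* (0.69) and *miR-496a-3p* (0.68). All these points share their libraries and their scaling, and *let-7f-5p* differs from other *let-7* miRs by few bases, so its counts are uncertain.

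Other miRs known from the same and from neighbouring cell types were read from lists of names. Of 12 tested endothelial or angiogenic miRs other than the 5, 0 were called and 2 had an unadjusted p under 0.05, where 17.5% of all miRs did, with 3 higher and 9 lower in Mir483Pat-KO and a median log2 fold change of -0.079, against 195 higher, 193 lower and a median of 0.0028 for all miRs tested. Their most abundant, *miR-92a-3p*, of the miR-17-92 cluster, was at 6515 ± 179 CPM in WT (SD, n = 5) with a log2 fold change of 0.10, and *miR-27a-3p/27b-3p* was at 4602 ± 370 CPM with -0.028. The 3 tested smooth muscle or muscle miRs were *miR-143-5p*, the partner arm read above, *miR-21a-5p* and *miR-204-5p*. Of these 0 were called, 1 had an unadjusted p under 0.05, and the median of -0.097 was the value of *miR-21a-5p*. The 1 was *miR-204-5p*, singled out after its value was seen. Its log2 fold change was 1.27 (SE 0.59, adjusted p = 0.275 by edgeR), on 9 to 97 reads per library. *miR-21a-5p*, which is not particular to muscle, made up nearly all of that list, at 21058 ± 1060 CPM in WT (SD, n = 5) with a log2 fold change of -0.097 (SE 0.049, adjusted p = 0.351 by edgeR). The defining muscle miRs were near the floor, with *miR-1a-3p* at 0 to 13 reads and *miR-206-3p* at 0 to 7 reads per library, and 5 entries of the list, among them *miR-145b* and *miR-208a-3p*, were at 0 in all 12.

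No miR on the lists of other liver cell types was called, and the part of these cell types in the values above was not tested. Of 5 stellate cell or fibroblast miRs 0 were called (2 higher, 3 lower) and 1 had an unadjusted p under 0.05, where 17.5% of all miRs did. That was *miR-199a-3p/199b-3p*, singled out after its value was seen, with a log2 fold change of 0.47 (SE 0.17, adjusted p = 0.176 by edgeR). The summed level of the list was 2065 to 3722 CPM in WT and 2403 to 3826 CPM in Mir483Pat-KO. The hepatocyte miRs, both arms of *miR-122*, summed to 127212 to 161575 and 118898 to 170206 CPM, so the defining miR of hepatocytes was abundant in every library. Of 4 erythroid miRs 0 were called, with 4 higher, a median log2 fold change of 0.19 and 2 at an unadjusted p under 0.05 (23848 to 31974 and 25913 to 37810 CPM). Of 3 white blood cell miRs 0 were called and 0 had an unadjusted p under 0.05, with 3 higher and a median of 0.14 (11032 to 14582 and 13119 to 14751 CPM). Of 5 epithelial miRs 0 were called, with 4 higher, 1 lower, a median of 0.12 and 2 at an unadjusted p under 0.05 (1190 to 1996 and 1179 to 1659 CPM). Those 2 were *miR-200a-3p*, with a log2 fold change of 0.39 (adjusted p = 0.0892 by edgeR), and *miR-429-3p*, with -0.29 (adjusted p = 0.253 by edgeR), also singled out after their values were seen.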

How the data were processed

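The authors extracted total RNA, made TruSeq Small RNA libraries for a NovaSeq6000 run, and used miRge for alignment and counting. The deposited table holds raw read counts for each mature miR in each fetus. The miR reference and the adapter trimming are not given in the sources used here, and GRCm38 is the build in the submitters' processing notes. The lowest count above 0 is 2. Columns were assigned to fetuses by the animal number in the labels, with 0 columns left over. No pair of the same genotype was found to be a library deposited more than once.

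From the counts, edgeR 4.0.16 (R 4.3.3) was used with filterByExpr (minimum count 10, minimum total count 15), TMM scaling, glmQLFit with legacy = TRUE and glmQLFTest, genotype alone in the design, as in the quasi-likelihood test that the study names. P-values were adjusted by Benjamini-Hochberg over the 388 miRs tested, with a threshold of 0.05. Fetuses are the replicates. Log2 CPM used a prior count of 2, and log2 ratios within a library used counts plus a pseudocount of 0.5 and two-sided exact permutation tests over all splits into 5 and 7 fetuses. The miRs and lists were chosen with earlier results of these data known.

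The miRs named are the 5, *miR-143-5p*, the called or at most the 2 most abundant miRs of each list, the 3 most like each guide strand, and *miR-483-3p* and *miR-483-5p*. *miR-126b*, the muscle miRs near 0, *miR-204-5p*, *miR-122*, *miR-199a-3p/199b-3p*, *miR-200a-3p* and *miR-429-3p* were named after their values were seen. Alternatives were other scalings, filters and dispersions, DESeq2 1.42.0, limma-voom (limma 3.58.1), a block, animal range, index number, other pseudocounts and leaving out each fetus. The scripts were checked on simulated counts with known changes. Figures were drawn with matplotlib 3.10.9.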

Additional observations from a re-analysis of the deposited data

Results flagged for a closer look

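The log2 ratio of *miR-143-3p* to *miR-143-5p* in WT 4 was 15.8, where the other WT fetuses lay between 9.81 and 11.1. It was set apart by its distance to the nearest other WT value, 0.777 of the range of the group, above Dixon's limit of 0.71 for 5 samples. WT 4 is the WT library with 0 reads of *miR-143-5p*, so its ratio is set by the pseudocount of 0.5. This was the only one of 20 groups of values examined (10 measures in 2 genotypes) to pass its limit, and chance passes about 1 in 20.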

How the results depend on the processing

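None of the 5 miRs was called under any alternative, and the lowest adjusted p was 0.180, for *miR-145a-5p* without Mir483Pat-KO 1. The log2 fold change of *miR-126a-3p* was 0.26 and that of *miR-126a-5p* 0.27 with the library index number as a covariate. Leaving out 1 fetus gave -0.19 to -0.067 and -0.36 to -0.17 for them, -0.35 to -0.14 for *miR-145a-5p* and -0.31 to -0.13 for *miR-145a-3p*. *miR-143-3p*, with its estimate near 0, changed sign under upper-quartile scaling (0.0028), the replicate block (0.021), a factor for the animal-number range (0.0075) and the index covariate (0.088), and ran from -0.048 to 0.011 with 1 fetus left out. The *miR-145a* arm ratio difference was 0.048 in the lower range and -0.16 to 0.13 with 1 fetus left out, and that of *miR-143*, in which 3 libraries at 0 reads of the 5p arm are set by the pseudocount, was 0.64 with a pseudocount of 0.5, 0.43 with 2, 0.85 with 0.1, 0.072 to 1.70 with 1 fetus left out (lowest without Mir483Pat-KO 6, highest without WT 4) and -1.36 in the lower range, so nothing is read from it. The correlation of *miR-126a-3p* with *miR-143-3p* was 0.13 with library size alone, 0.078 with centred log-ratios, 0.0024 without centring and -0.18 to 0.21 with 1 fetus left out. That of *miR-143-3p* with *miR-145a-5p* was 0.080 to 0.73 with 1 fetus left out. The cause of these changes was not tested.

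Of all miRs, 8 were called, against 14 with library size alone, 27 with DESeq2, 5 with the range as a factor, 3 with the index covariate, 2 in the lower range and 3 to 12 with 1 fetus left out. Library size alone gave 3 higher and 11 lower, where TMM gave 4 and 4.

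Fetuses with the same replicate number are different animals, and their deviations correlated at -0.24 to 0.23 over replicates 1 to 5, so the number does not pair them. With the replicate block 3 miRs were called, the *miR-143* arm ratio difference was -0.68, and none of the 5 miRs was called. For *miR-143-5p*, with at most 31 reads per library, and *miR-145a-3p*, depth limits what ratios can show.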
